A study of Rattus norvegicus with 12 samples.

Results

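The genes described here encode enzymes and helper proteins that turn newly made collagen chains into cross-linked fibres. They were chosen by symbol from the gene names of the deposited count table: P4ha1, P4ha2, P4ha3, Plod1, Plod2, Lox, Loxl1, Loxl2, Serpinh1 and Pcolce. All 10 were found, among 30560 genes listed, and all 10 passed the filter of at least 10 counts over the 12 libraries that left 18182 genes for testing. RNA was sequenced from hearts of male Wistar rats operated on at 7 weeks of age. The Sham group of 4 rats had the chest opened without ligation and received vehicle, carboxymethylcellulose. The MI group of 4 rats had the left anterior descending coronary artery ligated and received the same vehicle. The MI + UA group of 4 rats had the same ligation and received urolithin A (UA), a metabolite made by gut bacteria, at 50 mg/ml. All 3 groups were dosed daily by oral gavage for 8 weeks per the labels, and the study's results text gives another dose and a later start. Rats with small infarcts on echocardiography were left out by the study, and the authors set aside 1 more MI + UA library, not used here. Rat_66 is labelled as operated and given UA but is listed with vehicle rats in the study's echocardiography data. It was counted as MI + UA, as labelled.

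Collagen chains are modified in the endoplasmic reticulum before they leave the cell. Prolyl 4-hydroxylases, with a catalytic alpha subunit (P4ha1, P4ha2 or P4ha3) and the shared partner P4hb, hydroxylate prolines so that the triple helix is stable at body temperature. Lysyl hydroxylases hydroxylate lysines, Plod1 mainly in the helix and Plod2 in the telopeptides at the chain ends, where the hydroxylated residue leads to a more durable type of crosslink. Serpinh1 (HSP47) is a chaperone that binds the folded helix. Outside the cell Bmp1 removes the C-terminal propeptide with the help of Pcolce, and the copper enzymes Lox, Loxl1 and Loxl2 oxidise lysines so that crosslinks form. In the heart after infarction these proteins serve the scar that replaces lost muscle.

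The RNA came from sections of fixed heart blocks of the middle region, per the labels, so each library mixes muscle, fibroblasts, vessels and immune cells. Fewer cells of a type and less RNA per cell cannot be told apart in such samples. Total gene counts ran from 6228706 to 8958828 in Sham, from 6829591 to 12743184 in MI and from 6819444 to 19031695 in MI + UA, and the 13 genes of the mitochondrial genome took 50.2% to 58.6% of each library. Levels are given as gene counts scaled to a common library total (counts per 1e+06, CPM), without correction for gene length, so they are compared between rats and not between genes. Of the 7 cardiomyocyte markers tested, 6 were called lower in MI than Sham by edgeR at an adjusted p under 0.05, and their summed level was 46876 to 53392 CPM in Sham, 33233 to 39281 in MI and 34694 to 45963 in MI + UA. Of the 8 fibroblast markers 6 were called higher in MI, with sums of 600 to 729, 745 to 1097 and 807 to 1069 CPM in the same order. By the same test 5 of 7 macrophage markers and 4 of 7 mural cell markers were called higher, and 1 of 6 endothelial markers was called lower. Fold changes were above 0 for 7 of 7 macrophage and 5 of 7 mural cell markers and below 0 for 6 of 6 endothelial markers. Of all tested genes, 5.82% were called higher and 5.53% lower. The part of these shifts in the results below was not tested.

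The comparison of MI with Sham addressed how these genes stood 8 weeks after infarction. Plod2, Lox, Loxl1, Loxl2 and Pcolce were higher in MI, by 1.65-fold to 3.11-fold in mean CPM, and in each of them the lowest MI rat lay above the highest Sham rat. P4ha1, P4ha2, P4ha3, Plod1 and Serpinh1 did not pass the test. Thus 5 of 10 members were called higher and 0 lower by edgeR's quasi-likelihood test at an adjusted p under 0.05, where 5.82% of all tested genes were called higher and 5.53% lower. Groups were separate in the higher direction for these 5 members, against 8.12% of all tested genes. The median log2 fold change of the 10 members was 0.72, against 0.03 over all tested genes. All 10 fold changes were above 0, as were those of 53% of all tested genes.

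**Figure D1:**
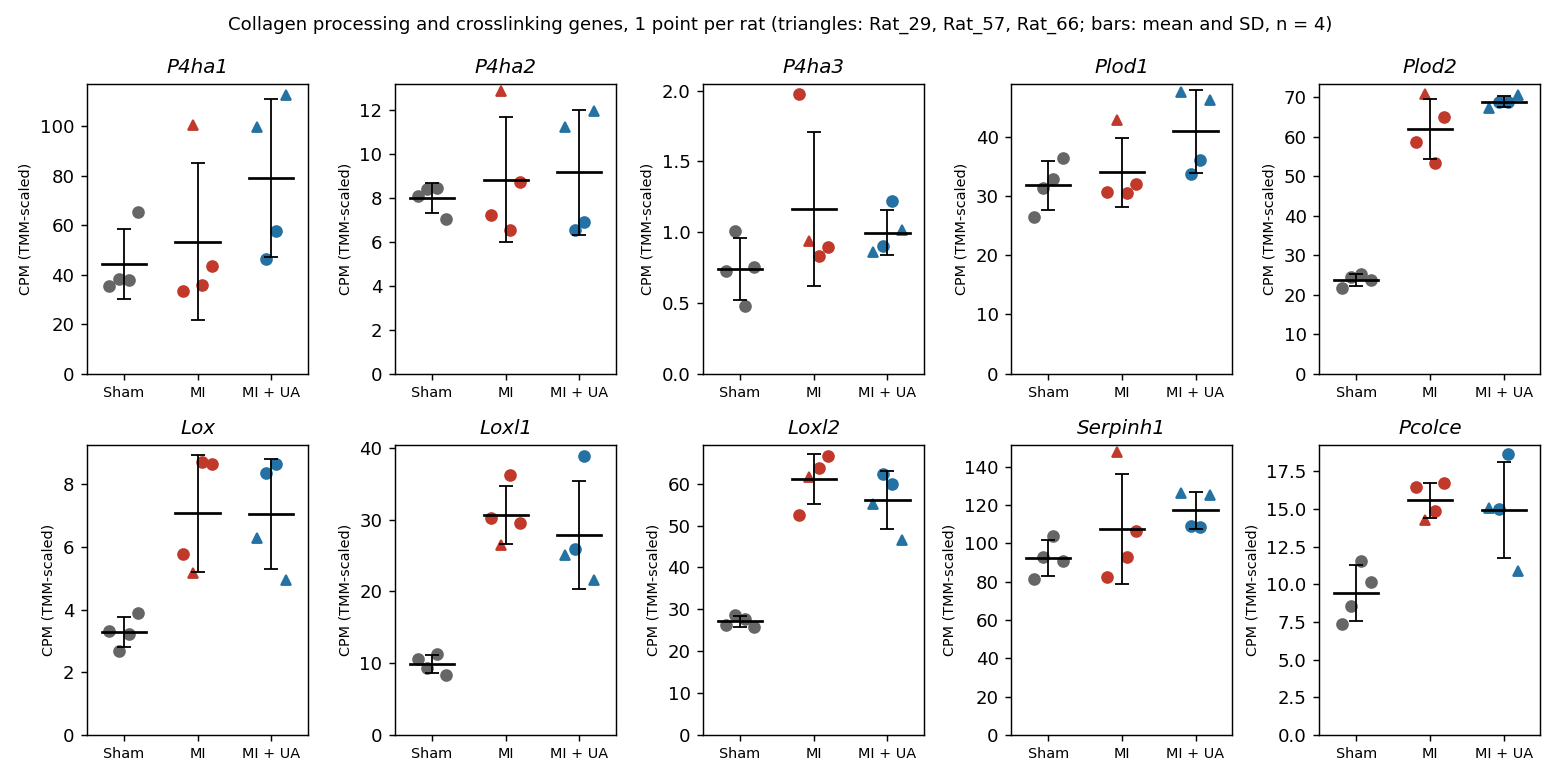
CPM of each of the 10 members in each of the 12 rats, 1 panel per gene with its own linear axis from 0; points are rats, bars are group means with SD (n = 4), and triangles mark Rat_29, Rat_57 and Rat_66. The Sham points of Plod2, Lox, Loxl1, Loxl2 and Pcolce lie below every MI point, while in the P4ha1, P4ha2, Plod1 and Serpinh1 panels the triangles are on top.

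Among the lysyl hydroxylases Plod2 (ENSRNOG00000030183) and Plod1 (ENSRNOG00000007763) differed in response. Plod2 stood at 21.6, 24.4, 25.3 and 23.7 CPM in the Sham rats Rat_17, Rat_32, Rat_38 and Rat_12_1. It was at 58.6, 70.9, 53.2 and 65.0 CPM in the MI rats Rat_36, Rat_57, Rat_61 and Rat_89. The lowest MI value was thus above the highest Sham value by more than the whole Sham range. The mean rose from 23.8 ± 1.55 to 61.9 ± 7.67 CPM (SD, n = 4 each), a 2.61-fold difference, and the log2 fold change was 1.38 (SE 0.10, edgeR adjusted p = 2.45e-08). Plod1 was at 26.6, 31.3, 32.9 and 36.5 CPM in Sham and at 30.6, 42.8, 30.5 and 32.1 CPM in MI, in the same rat order. These ranges overlapped, and the high MI value belonged to Rat_57 alone. The log2 fold change of Plod1 was 0.08 with a 95% interval of -0.20 to 0.36 (edgeR adjusted p = 0.785), and it was -0.04 without Rat_57. Within each rat, the log2 ratio of Plod2 to Plod1 ran from -0.62 to -0.29 in Sham and from 0.73 to 1.02 in MI. The difference in this ratio was 1.28 (exact two-sided permutation p = 0.0286, the smallest that 4 against 4 rats allow; 0.103 after adjustment over 18 ratios per comparison).

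The sequences upstream of this pair are shown because the data separate them. RefSeq promoters of the GRCr8 build, a later build than the mRatBN7.2 of the counts, were found for 8 of the 10 members, all but Lox and Loxl2. Each was searched, from 250 bases before to 50 bases after the gene's start, for ACGTG on both strands, the core letters of sites for hypoxia-inducible factors, and for GAANNTTC, a pair of facing units of the heat shock element that reads alike on both strands. ACGTG was in 19.3% and GAANNTTC in 8.59% of 33469 promoters of the same length. The 250 bases before the start are printed 5′ to 3′ along the gene, and capitals mark the matches. Plod2 (chr8:101964068-101964317, plus strand) held ACGTG on the opposite strand, printed here as CACGT, at -178 and -133 relative to the start, and GAANNTTC at -212. Plod1 (chr5:163650738-163650987, minus strand) held GAANNTTC at -9 and no ACGTG.
Plod2: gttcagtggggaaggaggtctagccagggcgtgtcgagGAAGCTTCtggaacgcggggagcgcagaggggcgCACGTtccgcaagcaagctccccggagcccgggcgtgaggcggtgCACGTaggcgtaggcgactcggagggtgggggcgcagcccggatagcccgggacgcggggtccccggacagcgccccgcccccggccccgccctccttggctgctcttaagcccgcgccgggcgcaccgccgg
Plod1: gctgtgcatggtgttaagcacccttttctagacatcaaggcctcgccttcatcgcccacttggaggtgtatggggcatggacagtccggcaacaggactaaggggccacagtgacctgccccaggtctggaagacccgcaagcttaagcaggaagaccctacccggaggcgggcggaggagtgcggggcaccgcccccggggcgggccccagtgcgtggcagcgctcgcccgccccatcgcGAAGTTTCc
The Plod2 stretch carries both motifs, with no overlap between them, and the Plod1 stretch carries 1 of them close to the start. A match is only a description of letters.

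Lox, Loxl1 and Loxl2 all rose. Lox (ENSRNOG00000014426), the enzyme after which the family is named, was at 3.32, 2.69, 3.22 and 3.89 CPM in Sham and at 5.78, 5.17, 8.72 and 8.64 CPM in MI. Its counts were low, 16 to 31 reads per Sham rat, yet no MI rat reached down to the Sham range. The log2 fold change was 1.11 (SE 0.23, edgeR adjusted p = 0.00320). Loxl1 (ENSRNOG00000008680), best known for elastic fibre upkeep, was at 10.5, 9.26, 11.2 and 8.41 CPM in Sham and at 30.3, 26.5, 36.2 and 29.5 CPM in MI. It had the largest change of the 10, 3.11-fold in mean CPM, from 9.85 ± 1.26 to 30.6 ± 4.07 (SD, n = 4 each; log2 fold change 1.64, SE 0.16, edgeR adjusted p = 2.10e-06). Loxl2 (ENSRNOG00000016758), an amine oxidase that also crosslinks basement membrane collagen, was at 26.3, 28.6, 27.7 and 25.8 CPM in Sham and at 52.6, 61.6, 63.7 and 66.6 CPM in MI. Sham rats lay within a span of under 3 CPM for this gene, and the MI rats were all above them. Its log2 fold change was 1.17 (SE 0.10, edgeR adjusted p = 5.10e-07), from 27.1 ± 1.28 to 61.1 ± 6.02 CPM (SD, n = 4 each). Within rats the log2 ratio of Loxl2 to Loxl1 was lower in MI by a mean difference of -0.46, without overlap (exact two-sided permutation p = 0.0286, adjusted p = 0.103). The log2 ratio of Loxl1 to Lox differed by 0.57 (exact permutation p = 0.0571) and that of Loxl2 to Lox by 0.10 (exact permutation p = 0.629), and both overlapped between the groups.

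Pcolce (ENSRNOG00000025001), the enhancer of procollagen C-proteinase, was at 7.36, 8.59, 11.6 and 10.2 CPM in Sham and at 16.5, 14.3, 14.8 and 16.7 CPM in MI. The MI rats were close to each other and above every Sham rat. The mean rose 1.65-fold, from 9.42 ± 1.83 to 15.6 ± 1.19 CPM (SD, n = 4 each; log2 fold change 0.72, SE 0.16, edgeR adjusted p = 0.00537). Bmp1, the proteinase that Pcolce assists, was higher too, by 0.76 on the log2 scale (SE 0.12, edgeR adjusted p = 0.000177).

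Of the prolyl 4-hydroxylase alpha subunits none passed the test in MI against Sham. P4ha1 (ENSRNOG00000050655), the main form in most cells, was at 35.2, 38.4, 37.7 and 65.5 CPM in Sham and at 33.3, 100.5, 35.9 and 43.4 CPM in MI. A single rat stood high in each group, Rat_12_1 in Sham and Rat_57 in MI, and the other rats of both groups lay between 33.3 and 43.4 CPM. The log2 fold change was 0.24 with a 95% interval of -0.41 to 0.88 (edgeR adjusted p = 0.716), and -0.24 without Rat_57. P4ha2 (ENSRNOG00000033663) was at 8.08, 8.42, 8.46 and 7.03 CPM in Sham and at 7.24, 12.9, 6.54 and 8.72 CPM in MI. Rat_57 was again the high MI rat, and the log2 fold change was 0.11 with it (interval -0.35 to 0.57, edgeR adjusted p = 0.822) and -0.09 without it. P4ha3 (ENSRNOG00000017118) was near the detection limit, with 4 to 27 reads per library, and stood at 0.722, 1.01, 0.477 and 0.753 CPM in Sham and 1.97, 0.941, 0.830 and 0.896 CPM in MI. Rat_36 was the high MI rat for this gene, and the fit gave 0.71 with an interval of -0.17 to 1.59 (edgeR adjusted p = 0.331), the widest of the 10, and 0.28 without Rat_36. The same rat was the 1 library with many reads of the cartilage collagen Col2a1, 405 against 0 to 3 in each of the other 11, and had 126 reads of Acan, the cartilage proteoglycan. Whether this bears on P4ha3 was not tested. All 3 cartilage markers listed, Sox9 included, were called higher in MI by edgeR, although the other 3 MI rats had 0 reads of Col2a1. The shared partner P4hb was at a log2 fold change of 0.18 (SE 0.08, edgeR adjusted p = 0.197).

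Serpinh1 (ENSRNOG00000016831) was at 81.4, 92.8, 104 and 90.8 CPM in Sham and at 82.4, 148, 92.9 and 106 CPM in MI. The ranges overlapped, with Rat_57 highest of all 12 rats. The log2 fold change was 0.21 with an interval of -0.07 to 0.49 (edgeR adjusted p = 0.364). The promoters of Serpinh1 and P4ha2 are shown because these genes, unlike Plod2, overlapped between MI and Sham and were highest in a few rats. Serpinh1 (chr1:163062977-163063226, minus strand, GRCr8) held GAANNTTC at -30, and P4ha2 (chr10:38743644-38743893, plus strand, GRCr8) held ACGTG at -133 and -41.
Serpinh1: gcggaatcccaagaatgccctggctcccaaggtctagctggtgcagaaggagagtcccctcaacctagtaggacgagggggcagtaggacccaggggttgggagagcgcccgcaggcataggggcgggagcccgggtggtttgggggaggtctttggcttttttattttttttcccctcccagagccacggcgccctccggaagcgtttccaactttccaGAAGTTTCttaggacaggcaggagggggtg
P4ha2: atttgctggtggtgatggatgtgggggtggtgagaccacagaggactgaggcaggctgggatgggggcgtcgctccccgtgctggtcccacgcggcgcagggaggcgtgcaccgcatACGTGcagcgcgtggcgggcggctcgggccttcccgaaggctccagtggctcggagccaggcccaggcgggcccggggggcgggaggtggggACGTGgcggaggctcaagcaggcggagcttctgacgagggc
P4ha1 held ACGTG at 12 bases into the transcript, and P4ha3, Loxl1 and Pcolce held neither motif in their windows. In all, 3 of the 8 promoters found held ACGTG and 3 held GAANNTTC. Of 13 hypoxia response genes tested, 0 were called higher in MI and 1, Pdk1, an inhibitor of pyruvate dehydrogenase, was called lower (log2 fold change -0.64, edgeR adjusted p = 5.09e-05). Fold changes were above 0 for 5 of the 13 and below 0 for 8. At an unadjusted p under 0.05 by edgeR, 2 were higher and 5 lower, where 12.6% of all tested genes were higher and 11.3% lower. The 2 higher genes were named after their values were seen. Adm, the vasodilator peptide adrenomedullin, was at 0.99 (edgeR adjusted p = 0.0579), and Ndrg1 was at 0.38 (edgeR adjusted p = 0.126) with every MI rat above every Sham rat.

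**Figure D2:**
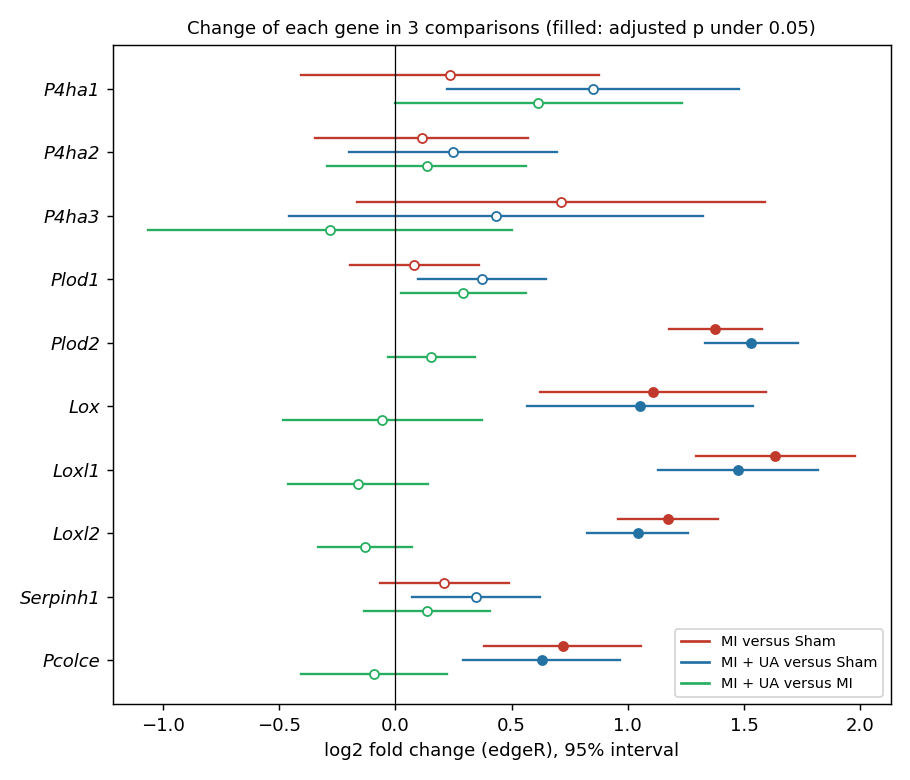
Log2 fold change of each member with its 95% interval from edgeR, for MI versus Sham, MI + UA versus MI and MI + UA versus Sham, with a line at 0; filled points have an adjusted p under 0.05. Plod2, Lox, Loxl1, Loxl2 and Pcolce are filled in both comparisons with Sham, and no point is filled for MI + UA versus MI.

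The members were then set against the collagens they process. All 5 fibrillar collagen genes tested were higher in MI (Col1a1 1.56, Col3a1 1.45, Col1a2 1.26, Col5a2 0.92 and Col5a1 0.85 on the log2 scale), and their summed level was 789 to 994 CPM in Sham and 1828 to 2983 in MI. Within each rat, the log2 ratio of a member to this sum was lower in MI for 8 of 10 members, against 96.9% of all 18182 tested genes, whose median difference was -1.35. A lower ratio was thus the rule for any gene, and the 3 members without overlap below stand against 67.0% of all tested genes. Groups did not overlap for P4ha2, with a difference of -1.28, for Plod1, also with -1.28, and for Serpinh1, with -1.18 (exact two-sided permutation p = 0.0286 and adjusted p = 0.103 each, so none passed after adjustment). With Col1a1 alone as the denominator the Serpinh1 ratio overlapped. P4ha1 differed by -1.21 with overlap, and by -1.69 without overlap once Rat_57 was left out. The ratio of Plod2 to collagen had a mean of -5.27 ± 0.19 in Sham and -5.27 ± 0.39 in MI (SD, n = 4 each, log2), and without Rat_57 the difference was -0.19. Loxl1 differed by 0.26, Loxl2 by -0.20, Lox by -0.31 and Pcolce by -0.63, each with overlap. Thus the 5 members that rose had the 5 smallest differences in ratio, a pattern that shares its numerators with the fold changes above.

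**Figure D3:**
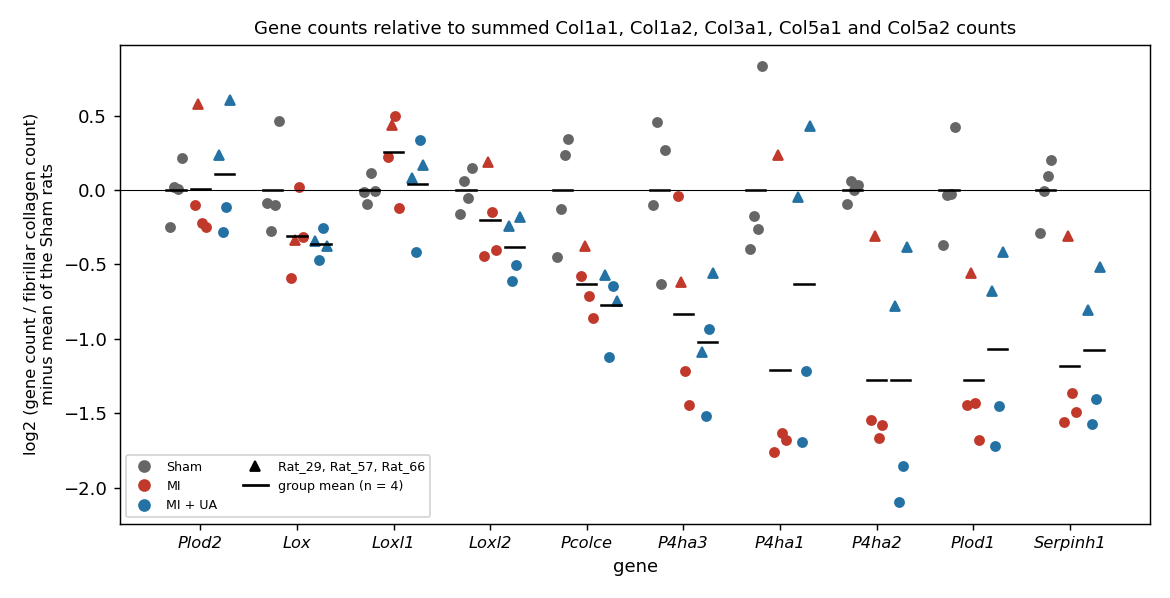
Log2 ratio of each member's count to the summed counts of Col1a1, Col1a2, Col3a1, Col5a1 and Col5a2 in each rat, by group, with group means. Each ratio is drawn minus its mean over the Sham rats. P4ha2, Plod1 and Serpinh1 sit lower in MI than in every Sham rat, while Plod2 and Loxl1 share a range with Sham.

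The wider list of collagen processing genes held 24 tested genes outside the 10. Of these, 6 were called higher in MI, against 5.82% of all tested genes, 1 was called lower, against 5.53%, and 17 did not pass. The 7 calls became 4 without Rat_61. The median log2 fold change of the 24 was 0.26, against 0.03 over all tested genes. Adamts2, which removes the N-terminal propeptide, rose by 0.88 (SE 0.14, edgeR adjusted p = 0.000237). P3h3, a member of the prolyl 3-hydroxylase family, rose by 0.85 (SE 0.12, edgeR adjusted p = 6.81e-05). Fkbp10, a prolyl isomerase that works with Plod2, rose by 0.78 (SE 0.14, edgeR adjusted p = 0.000666). These genes and Bmp1 were called in 20 of 20 alternative analyses. Loxl3, a further lysyl oxidase, was at 0.60 (edgeR adjusted p = 0.0496) and was called in 3 of the 20. Loxl4, the remaining lysyl oxidase, was at 0.20 with overlap (edgeR adjusted p = 0.636) and was called in 0 of the 20. Loxl4, Tgm2 and Tmem38b were named after their values were seen. Tgm2, a transglutaminase, was at 0.30 (edgeR adjusted p = 0.0459) and called in 9 of 20, and Tmem38b, an ion channel of the endoplasmic reticulum, was the 1 lower gene at -0.43 (edgeR adjusted p = 0.0203).

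**Figure D4:**
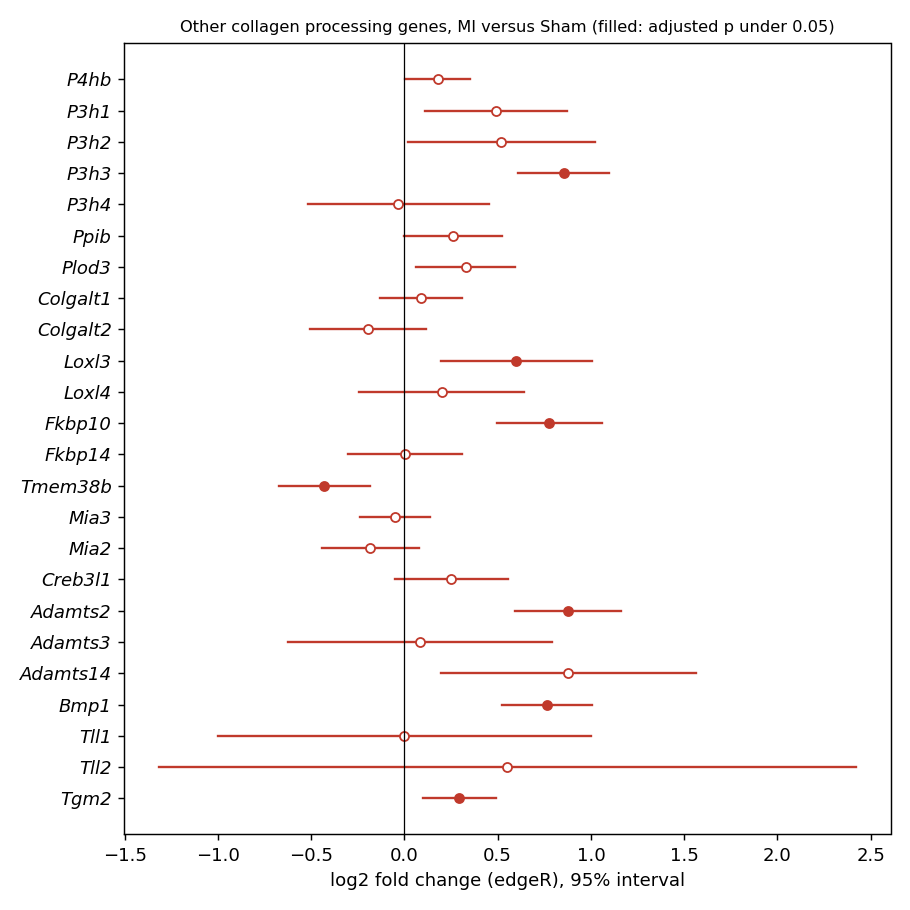
Log2 fold change in MI versus Sham, with 95% intervals from edgeR, of the 24 wider processing genes. Filled points have an adjusted p under 0.05. Of the 24, 6 are filled to the right of 0 and 1, Tmem38b, to the left, and most of the list crosses or nears 0.

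Of the 5 members that did not pass, 4 were highest in the same rats, and P4ha3 was not, with Rat_36, Rat_64 and Rat_66 on top. Rat_57 of the MI group and Rat_29 and Rat_66 of the MI + UA group were the 3 highest of 12 rats for P4ha1, P4ha2, Plod1 and Serpinh1. The same 3 rats were on top for 118 of 11986 genes with an average log2 CPM of at least 1, or 0.984%, and not for P4hb. These 3 rats were picked from the members' own values, so the share is a description and no test of the members. Their libraries held 6829591, 17382116 and 19031695 gene counts, which are the lowest of MI and the 2 highest of all, and mitochondrial shares of 57.6%, 54.7% and 56.8%. Rat_57 and Rat_66 had the lowest collagen sums of their groups, 1828 and 1787 CPM, and the lowest fibroblast marker sums, 745 and 807 CPM, while Rat_29 was at 994 CPM for the latter. The cardiomyocyte marker sum was the highest of MI in Rat_57, at 39281 CPM, and the 2 highest of MI + UA were Rat_66, at 45963 CPM, and Rat_29, at 38820 CPM. The part of these levels in the shared pattern was not tested. The profile most like that of P4ha1 over the 12 rats, by the root mean square difference of log2 CPM centred on each gene's mean, belonged to Dnaja1 (0.208), followed by Hsp90aa1 (0.248) and Irs2 (0.273). Dnaja1 and Hsp90aa1 are cytosolic chaperones. Dnaja1 was at 85.0, 76.6 and 93.2 CPM in Rat_57, Rat_29 and Rat_66, at 62.0 in Rat_12_1 and from 27.9 to 56.3 in the other 8 rats. P4ha1 itself was at 100.5, 99.6 and 112.5 CPM in those 3 rats, at 65.5 in Rat_12_1 and from 33.3 to 57.5 in the other 8. The same rats were high in both genes, which follows from choosing Dnaja1 for its likeness to P4ha1 over these rats.

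By the same measure, over the 10929 other genes with a symbol and enough signal, Plod2 was nearest to Runx2 (0.207), with Fbln1 (0.230) also close, Lox to Glis3 (0.162), Dact3 (0.172) and Col5a2 (0.178), Loxl1 to Fbn1 (0.165), and Loxl2 to Prelp (0.133), Mid1 (0.133) and Mfap4 (0.144). Pcolce was nearest to Siglec1 (0.108), Ifitm1 (0.136) and Bmp1 (0.140). Plod1 was nearest to Tmem33 (0.13), with Serpinh1 next (0.138), and Serpinh1 to Rybp (0.118). P4ha2 was nearest to Btg2 (0.120). Among the members themselves the closest pair was Plod1 and Serpinh1 and the most distant P4ha1 and Loxl1 (0.909). The measure is not scaled to a gene's own spread, so genes that vary little come out close. The root mean square spread over the rats was 0.247 for Plod1, 0.249 for Serpinh1, 0.622 for P4ha1 and 0.764 for Loxl1.

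**Figure D5:**
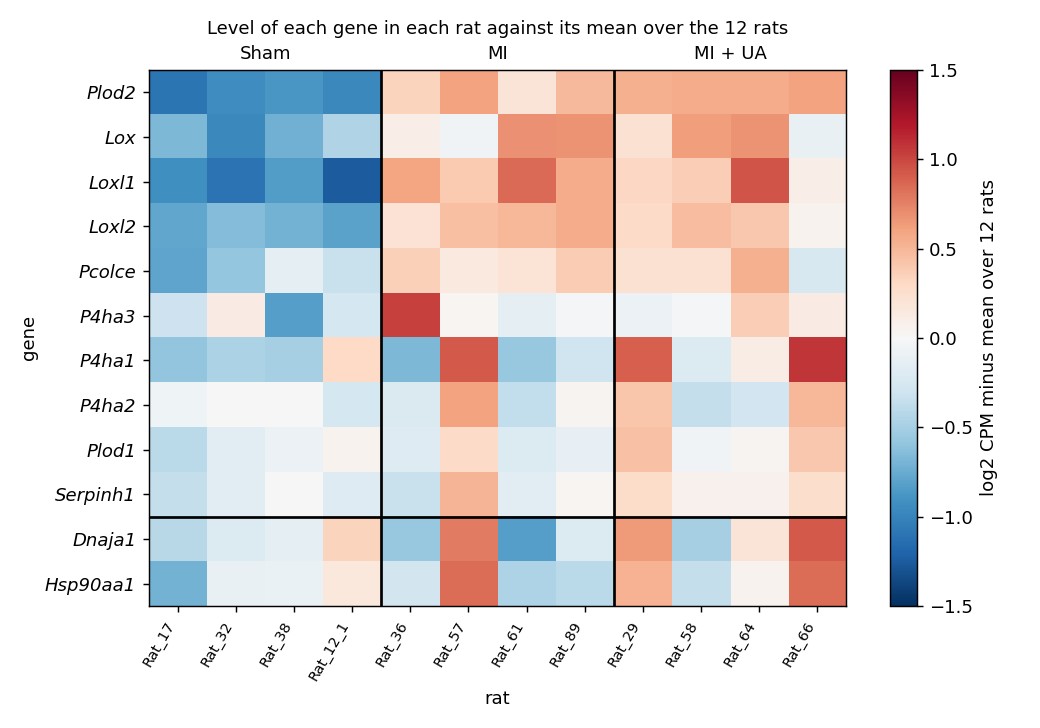
Log2 CPM of each member in each rat minus the gene's mean over the 12 rats, as colour, with rats grouped as Sham, MI and MI + UA. Plod2, Lox, Loxl1, Loxl2 and Pcolce change colour at the border between Sham and the infarcted groups, whereas P4ha1, P4ha2, Plod1 and Serpinh1 stand out in Rat_57, Rat_29 and Rat_66.

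The comparison of MI + UA with MI addressed the effect of the compound after infarction. None of the 10 members passed the test, and 0% of all 18182 genes did by edgeR or by DESeq2, while 3.79% of all genes had an unadjusted p under 0.05 by edgeR. Values of the 2 groups overlapped for all 10 members, and were separate in either direction for 2.34% of all genes. Plod2 was at 67.2, 68.7, 68.6 and 70.6 CPM in Rat_29, Rat_58, Rat_64 and Rat_66, within a span of under 4 CPM, and its log2 difference from MI was 0.16 (95% interval -0.03 to 0.34). Lox was at 6.29, 8.35, 8.66 and 4.95 CPM, with a difference of -0.06 (interval -0.48 to 0.37). Loxl1 was at 25.03, 25.9, 38.8 and 21.6 CPM, with -0.16 (interval -0.46 to 0.14). Rat_66 was the lowest MI + UA rat for both genes. Loxl2 was at 55.2, 62.3, 59.95 and 46.6 CPM, with -0.13 (interval -0.34 to 0.07). Pcolce was at 15.1, 15.0, 18.7 and 10.9 CPM, with -0.09 (interval -0.40 to 0.22). Rat_66, the animal listed differently in the study's records, was the lowest MI + UA rat for Lox, Loxl1, Loxl2 and Pcolce, and with it counted as MI these 4 differences were 0.20, 0.05, 0.02 and 0.15.

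P4ha1 and Plod1 had the largest positive differences. P4ha1 was at 99.6, 46.4, 57.5 and 112.5 CPM in MI + UA, 0.62 above MI on the log2 scale (interval -0.00 to 1.23, edgeR unadjusted p = 0.0510). This difference was 0.08 with Rat_66 counted as MI, and ran from 0.40 without Rat_66 to 1.09 without Rat_57 when 1 rat was left out. Rat_66 was above every MI rat, and the other 3 lay within the MI range, Rat_29 near its top. Plod1 was at 47.5, 33.8, 36.1 and 46.3 CPM, 0.29 above MI (interval 0.02 to 0.56), and was the 1 member with an unadjusted p under 0.05, where 1.86% of all genes had one in that direction (0.0347 by edgeR and 0.0474 by DESeq2; adjusted p = 0.999721 by edgeR). Serpinh1 was at 126, 109, 109 and 125 CPM, with a difference of 0.14 (interval -0.14 to 0.41). P4ha2 was at 11.3, 6.55, 6.90 and 11.99 CPM, with 0.13, and P4ha3 at 0.857, 0.899, 1.22 and 1.01 CPM, with -0.28. With Rat_29, Rat_57 and Rat_66 left out together, the difference was 0.46 for P4ha1, 0.16 for Plod1, 0.21 for Serpinh1 and -0.17 for P4ha2. None of the 10 ratios to collagen separated MI + UA from MI, where 0.511% of all tested genes did so lower and 0.379% higher. None of 8 ratios between members separated these groups.

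MI + UA was also compared with Sham, which shares its Sham rats with the comparison of MI. Plod2 (log2 fold change 1.53), Loxl1 (1.47), Lox (1.05), Loxl2 (1.04) and Pcolce (0.63) were higher, so that 5 of 10 members were called by edgeR, against 5.16% of all genes called higher. The adjusted p from edgeR was 5.43e-09 for Plod2 and 0.0166 for Pcolce, the weakest of the 5, whose lowest MI + UA rat, at 10.9 CPM, lay below the highest Sham rat. Without Rat_17, Rat_32 or Rat_64 in turn the adjusted p of Pcolce by edgeR rose above 0.05, to at most 0.0661. P4ha1 (0.85, edgeR adjusted p = 0.0856), Plod1 (0.37, edgeR adjusted p = 0.0825) and Serpinh1 (0.35, edgeR adjusted p = 0.113) did not pass, although Serpinh1 was higher in every MI + UA rat than in any Sham rat. Groups were separate in this direction for 5 members (Plod2, Lox, Loxl1, Loxl2 and Serpinh1), against 7.83% of all genes. P4ha1, Plod1 and Serpinh1 all passed without Rat_57, which brought the count to 8. Rat_57 is an MI rat, so its removal changed the fit shared by the 3 groups and none of the rats compared here.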

How the data were processed

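Total RNA of 12 rat hearts was sequenced after ribosomal RNA depletion, although the labels name polyA RNA. The authors aligned reads with STAR 2.6.1c to mRatBN7.2 and deposited raw counts per gene from HTSeq, with MultiQC 1.8 named among the tools. Lines that name no gene were left out of library sizes, and held 37.9% to 46.6% of reads for no feature and 3.18% to 3.84% for ambiguous reads. Whether counting used strand is not given in the sources used here. Counts were tested with edgeR 4.0.16 (R 4.3.3; TMM, quasi-likelihood, all 3 groups in 1 fit, Benjamini-Hochberg over 18182 genes with at least 10 counts in all), as an alternative with DESeq2 1.42.0, and otherwise under the settings of the closing section. Ratios within a rat were taken on counts, with 0.5 added to both, and tested with an exact two-sided permutation test over 70 groupings. The fit was tested on simulated MI and Sham counts of 17958 genes, where it recovered 17.9% of genes changed by 0.5, 89.6% of those changed by 1 and 100% of those changed by 2 on the log2 scale. All members were named. The 3 genes most like each member were ranked, and 1 of them is not reported here. Of the other lists, at most 5 called genes by size of change were named, plus P4hb and Bmp1, and genes outside this rule (Loxl4, Tgm2, Tmem38b, Adm, Ndrg1 and the cartilage markers) were named after their values were seen. The members and lists were chosen with earlier results of these data known. Leaving out Rat_29, Rat_57 and Rat_66 together was chosen after seeing the data. Libraries of a group are separate animals per the labels, and no 2 libraries of the same group agreed within sampling noise (chi-square per degree of freedom 1.89 to 15.7). Pairs across groups were not compared.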

Additional observations from a re-analysis of the deposited data

Results flagged for a closer look

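Each member was examined in each group of 4 rats for a rat whose gap to its nearest neighbour, divided by the range of the group on the log2 scale, was beyond the 95% critical value of Dixon. Chance gives about 1 in 20 such groups, which is 1.5 of the 30 examined, and 3 were found. P4ha1 in Rat_12_1 was the highest of Sham, at 65.5 CPM against 38.4 CPM in the next rat (gap over range 0.861). P4ha3 in Rat_36 was the highest of MI, at 1.97 against 0.941 CPM (0.86), in a library with 27 reads of the gene. Plod1 in Rat_57 was the highest of MI, at 42.8 against 32.1 CPM (0.85).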

How the results depend on the processing

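The 5 members called higher in MI than in Sham were each called in all 20 alternatives, and 0 members were called for MI + UA against MI in each of them. For MI + UA against Sham the count was 8 without a filter beyond 1 count. It was 4 to 8 with 1 rat left out in turn, and 8 without Rat_57, which is in neither group. The wider list, with 7 genes called in MI against Sham in either direction, gave 4 to 6 with 1 rat left out, 4 without Rat_61. The ratios to collagen without overlap, 3 in the report, numbered 3 to 5 with 1 rat left out (5 without Rat_57), and 5 without Rat_29, Rat_57 and Rat_66 together. Leaving out these 3 rats turned the sign of the log2 fold change in MI against Sham for P4ha1 (-0.2258), P4ha2 (-0.07222) and Plod1 (-0.02235), in MI + UA against MI for P4ha2 (-0.1662), Lox (0.1451), Loxl1 (0.01415), Loxl2 (0.0003417) and Pcolce (0.06609), in MI + UA against Sham for P4ha2 (-0.2385), and for the ratios of Plod2 to collagens (-0.1889), P4ha2 to P4ha1 (0.09265) and Loxl2 to Lox (-0.03547). With Rat_66 counted with MI, the differences of MI + UA from MI turned for P4ha2 (-0.1425), Lox (0.2013), Loxl1 (0.04613), Loxl2 (0.02379) and Pcolce (0.1492). The ratio of Plod2 to collagens, near 0, was -0.02258 with a pseudocount of 5, -0.162 with Col1a1 alone and -0.06448 with Col3a1 alone. With 1 rat left out, values that crossed 0 ran for MI against Sham from -0.2396 to 0.4919 for P4ha1, -0.08631 to 0.2259 for P4ha2 and -0.03671 to 0.1552 for Plod1; for MI + UA against MI from -0.02067 to 0.3333 for P4ha2, -0.4129 to 0.1498 for P4ha3, -0.1638 to 0.09656 for Lox and -0.2065 to 0.04705 for Pcolce. The ratios that did so ran from -0.1889 to 0.08816 for Plod2 to collagens, -0.3332 to 0.09265 for P4ha2 to P4ha1, -0.06792 to 0.7893 for P4ha3 to P4ha1 and -0.03547 to 0.2177 for Loxl2 to Lox. The cause of these changes was not tested. The smallest permutation p for 4 against 4 rats is 0.0286, so no ratio could pass after adjustment unless many did. Intervals cover the spread between these rats, and P4ha3 rests on few reads. No paired analysis was possible because the labels number no replicates across the groups and each animal belongs to 1 group.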
